A study of Homo sapiens with 12 samples.

Results

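The genes described here are the FOXO transcription factors of HepG2 cells and their targets outside metabolism, in a time course of insulin stimulation measured by RNA-seq. They are 9 of the 26364 genes counted, and they were chosen by name: FOXO1, FOXO3 and FOXO4, and the targets C10orf10, CCNG2, BCL6, SESN1, CITED2 and GADD45A. The choice was made with the time courses of these genes known, so their levels over the 5 times and the order in which they declined are given as a description. Where the fit across all genes calls them, the count is printed beside the share of all genes called and is not evidence for the choice. HepG2 is a line grown from a human liver cancer.

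RNA was sequenced at 0, 5, 10, 30 and 240 min after insulin, with 2 libraries per time, numbered replicate 1 and replicate 2. The stated growth medium of the cells was EMEM with 10% FBS, and the 0 min libraries serve as the cells before stimulation. No library without insulin was sequenced at 5, 10, 30 or 240 min. Effects of insulin, of elapsed time and of a change of medium therefore cannot be told apart. For its HepG2 insulin experiments the paper describes days in EMEM without supplements, then insulin at physiologic or pathologic levels with BSA, and a washout. Which of these steps preceded the RNA libraries could not be settled. The treatment text attached to every RNA library, also at 0 min, gives EMEM and then 3 nM insulin in EMEM with BSA for 5 min, and the times stand only in the library names, so the insulin dose of the time course rests on that text. The paper describes its RNA-seq as done once, on biologically independent samples, and does not say how the 2 libraries of a time were grown. The p-values below measure only the spread between these libraries. The insulin receptor (IR) was also mapped on chromatin by ChIP-seq in 1 library of doubly fixed HepG2 cells, whose label also names stimulation by 3 nM insulin after a washout, and its input library was not analysed here.

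FOXO proteins are forkhead transcription factors that stand at the end of the insulin signalling pathway. In cells without insulin they occupy their target genes in the nucleus and activate them. When insulin activates the kinase AKT, FOXO proteins are phosphorylated, bound by 14-3-3 proteins and held in the cytoplasm, and transcription of their targets drops. In the liver they are best known for genes of glucose output such as G6PC and PCK1 and for IGFBP1, while in many cell types they control genes of growth arrest, autophagy and stress resistance.

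Forkhead factors bind a short core element, written GTAAACA, or TGTTTAC on the other strand, and the sequences below show where these letters lie near the start sites of the 9 genes. The sequences were read from GRCh37, the build of the deposited files, 5′ to 3′ on the strand of the gene, with the element in capitals. Positions are counted in bases from the gene start, negative upstream, and refer to the first base of the element. In a window of 250 bases before to 50 bases after the start, the element was found in C10orf10 alone among the 9 genes, at -107, and in 2.53% of the start windows of 13695 tested genes with a location. The window of C10orf10 lies on the minus strand at chr10:45474281-45474580 and is shown whole because this gene had the largest decline of the 9.
C10orf10: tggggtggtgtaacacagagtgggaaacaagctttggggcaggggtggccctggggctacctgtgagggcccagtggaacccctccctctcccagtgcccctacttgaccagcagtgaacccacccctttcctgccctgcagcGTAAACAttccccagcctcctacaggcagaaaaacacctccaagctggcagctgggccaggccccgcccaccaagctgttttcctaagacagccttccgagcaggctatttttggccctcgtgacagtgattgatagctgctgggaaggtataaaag

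In a wider window of 1500 bases before to 500 bases after the start, 5 of the 9 genes held the element, and 18.7% of the 13695 windows did. C10orf10 and CCNG2 each held it at 2 positions, and how many of all windows hold it at 2 was not counted. A relation of the matches to the declines was not tested. FOXO1 and FOXO4, which encode factors of the family, and CITED2 held it once. FOXO3, BCL6, SESN1 and GADD45A had no match, which says only that these letters are not in that window. The matches with the 12 bases on either side are shown for comparison.
C10orf10 at -107, chr10:45474419-45474449, minus strand: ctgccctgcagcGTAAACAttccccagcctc
C10orf10 at -465, chr10:45474777-45474807, minus strand: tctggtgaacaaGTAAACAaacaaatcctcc
CCNG2 at -1257, chr4:78077088-78077118, plus strand: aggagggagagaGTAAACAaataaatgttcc
CCNG2 at -1005, chr4:78077340-78077370, plus strand: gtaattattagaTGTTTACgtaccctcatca
FOXO4 at -275, chrX:70315712-70315742, plus strand: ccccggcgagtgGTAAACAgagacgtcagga
FOXO1 at -370, chr13:41241086-41241116, minus strand: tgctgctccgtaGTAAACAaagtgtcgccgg
CITED2 at -868, chr6:139696637-139696667, minus strand: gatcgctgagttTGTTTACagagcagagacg

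A second element, CAAAACA or TGTTTTG on the other strand, is part of the insulin response sequence described at IGFBP1. It was found in the 300-base start window of FOXO4 alone, at -238, and in 3.84% of all such windows. In the 2000-base window it was present in 6 of the 9 genes and in 34.9% of all windows. A match of letters is a description of the sequence and not of a bound site.

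Expression is given as CPM, the count of a gene scaled to the size of the library after TMM normalization, and libraries held 18347109 to 45005769 counts on genes. All 9 genes passed the filter on low counts, with a lowest count of 143 in any library (C10orf10 at 240 min). Hepatocyte markers were high in every library, with ALB at 13890 to 20350 CPM and SERPINA1 at 8696 to 10640 CPM. Of 6 markers of other cell types, PTPRC, CD3E, COL1A2 and DES were at or near 0, PECAM1 was at 1.75 to 3.00 CPM and CD68 was at 36.3 to 45.3 CPM. APOA2, a hepatocyte apolipoprotein, was called lower at 240 min (log2 fold change -0.32, edgeR adjusted p = 0.000644), a call lost with scaling to the ERCC spike-ins. ALB was at -0.29 (edgeR adjusted p = 0.0503), and the part of both genes in the results below was not tested. In bulk RNA of a cell line, fewer cells that express a gene and less of its RNA per cell cannot be told apart.

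Scaled per length, as TPM in the deposited StringTie table, the mean level at 0 min was highest for C10orf10 at 111 TPM, followed by GADD45A at 71.2 TPM and BCL6 at 47.8 TPM. SESN1 at 31.5 TPM, CITED2 at 30.9 TPM and FOXO3 at 30.5 TPM followed, and the libraries of CITED2 spanned those of the other 2 genes. FOXO1 was at 18.7 TPM, above CCNG2 at 15.8 TPM and FOXO4 at 14.8 TPM, whose libraries overlapped. At 240 min C10orf10 had moved from first place to 9.15 TPM, and only FOXO4 at 8.53 TPM and CCNG2 at 5.08 TPM were lower. GADD45A stood first at 240 min, at 86.4 TPM.

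**Figure D1:**
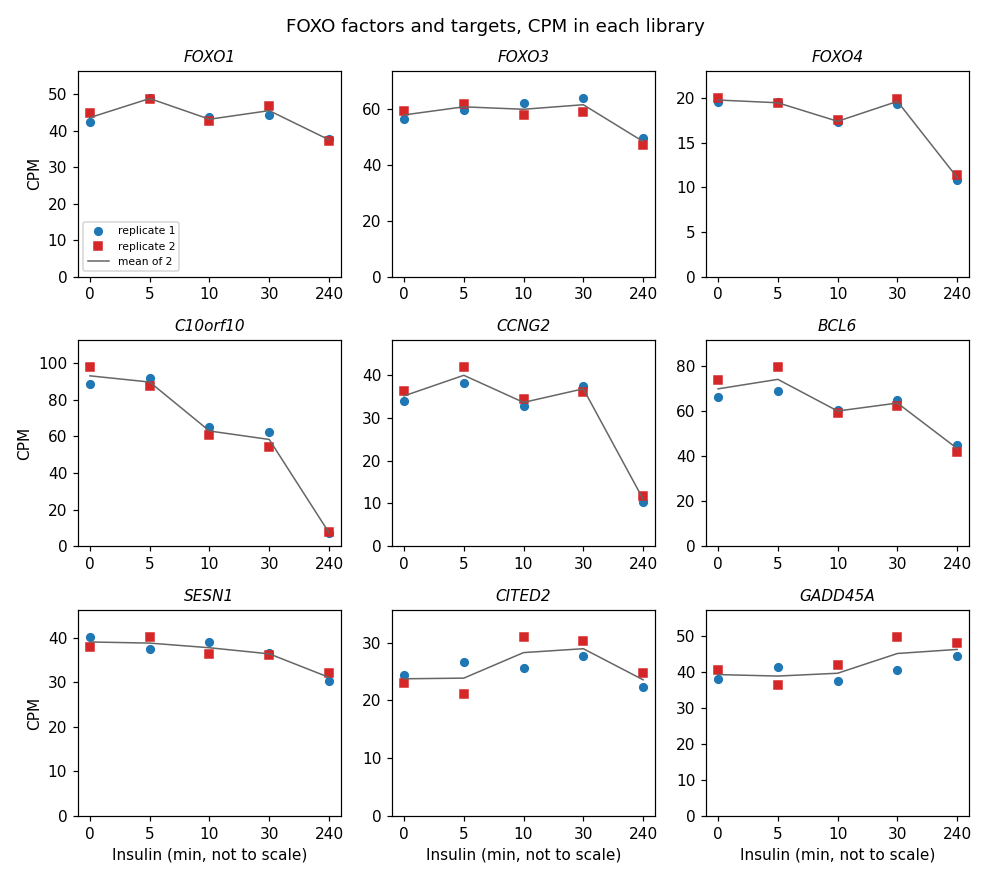
CPM of the 9 genes in each of the 10 libraries (points, circles for replicate 1 and squares for replicate 2) at 0, 5, 10, 30 and 240 min of insulin, with the mean of the 2 libraries of a time as a line; each axis starts at 0. C10orf10 is lower from 10 min on and reaches 7.28 and 7.52 CPM at 240 min, while CCNG2 and FOXO4 are lowest at 240 min, FOXO4 with a dip at 10 min, and the 240 min libraries of CITED2 and GADD45A do not lie below those of 0 min.

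The 3 factors were lowest at 240 min, and FOXO1 and FOXO3 changed by less than FOXO4. FOXO4, the factor with the lowest level, was at 19.5 and 20.1 CPM at 0 min (replicates 1 and 2), 19.6 and 19.4 after 5 min, 17.3 and 17.5 after 10 min, 19.4 and 19.9 after 30 min, and 10.9 and 11.4 after 240 min. Both 240 min libraries lay far below the other 8, at 56.1% of the 0 min mean, and the dip at 10 min was gone at 30 min, where the libraries overlapped those of 0 min. The log2 fold change at 240 min against 0 min was -0.84 (standard error 0.0822), at percentile 1.96 of the 13852 genes tested, counted from the lowest.

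The next factor, FOXO1, best known for control of glucose output from the liver, was at 42.4 and 44.9 CPM at 0 min, 49.1 and 48.6 after 5 min, 43.7 and 42.6 after 10 min, 44.3 and 46.8 after 30 min, and 37.9 and 37.2 after 240 min. Both libraries were higher than those of 0 min at 5 min and lower at 240 min. The log2 fold change was 0.16 (standard error 0.0574) at 5 min and -0.22 (standard error 0.0593) at 240 min. The value at 240 min stood at percentile 22 of the 13852 genes tested, counted from the lowest.

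FOXO3, a factor with a broad role in stress resistance and autophagy, was at 56.7 and 59.4 CPM at 0 min, 59.7 and 62.1 after 5 min, 62.2 and 57.9 after 10 min, 64.2 and 59.1 after 30 min, and 49.9 and 47.1 after 240 min. Only the 240 min libraries lay below those of 0 min, where the log2 fold change was -0.26 (standard error 0.0609). That value stood at percentile 18.7 of the 13852 genes tested, counted from the lowest. FOXO3B, a near-identical copy of FOXO3 counted at 116 to 242 reads per library, was at 0.56 on the log2 scale (standard error 0.123) in the same comparison, opposite in sign, and whether the copies share reads was not tested. FOXO6, the family's other factor, had at most 11 reads in any library and was not tested.

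C10orf10, also named DEPP1, encodes a small FOXO-induced protein linked to autophagy and oxidative stress. It was at 88.3 and 97.6 CPM at 0 min, 91.7 and 87.5 after 5 min, 64.9 and 60.9 after 10 min, 62.3 and 54.2 after 30 min, and 7.28 and 7.52 after 240 min. The libraries of 5 min overlapped those of 0 min, those of 10 and 30 min overlapped each other and lay below, and those of 240 min were lower again, at 7.96% of the 0 min mean. The log2 fold change from 0 min was -0.57 (standard error 0.0646) at 10 min, -0.67 (standard error 0.0652) at 30 min and -3.66 (standard error 0.0891) at 240 min. In this fit the value at 240 min was the lowest of the 13852 genes tested. C10orf10 overlaps RASSF4 on the other strand, and the authors counted reads by strand.

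CCNG2 encodes cyclin G2, an unconventional cyclin that is high in resting cells and opposes the cell cycle. It was at 34.0 and 36.4 CPM at 0 min, 38.1 and 41.9 after 5 min, 32.8 and 34.5 after 10 min, 37.6 and 36.1 after 30 min, and 10.2 and 11.8 after 240 min. The 8 libraries up to 30 min ran from 32.8 to 41.9 CPM, and both 240 min libraries were below all of them, at 31.4% of the 0 min mean. Its log2 fold change was -1.69 (standard error 0.0848) at 240 min (percentile 0.152 from the lowest), against 0.06 at 30 min.

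BCL6, a transcriptional repressor that in liver acts on lipid genes, was at 66.3 and 73.7 CPM at 0 min, 68.8 and 79.6 after 5 min, 60.8 and 59.5 after 10 min, 65.2 and 62.2 after 30 min, and 45.1 and 41.8 after 240 min. Both libraries were below those of 0 min from 10 min on, by little at 10 and 30 min and to 62.1% of the 0 min mean at 240 min. The log2 fold changes were -0.23 at 10 min, -0.14 at 30 min and -0.69 (standard error 0.0707) at 240 min. BCL6 overlaps the noncoding gene LOC100131635 on the other strand.

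SESN1 encodes sestrin 1, a stress-induced protein that restrains the growth kinase mTORC1. It was at 40.2 and 37.9 CPM at 0 min, 37.5 and 40.1 after 5 min, 39.0 and 36.5 after 10 min, 36.5 and 36.2 after 30 min, and 30.2 and 32.0 after 240 min. The 30 min libraries were below those of 0 min by a small margin, and the 240 min libraries were clear of all others, where the log2 fold change was -0.33 (standard error 0.0661).

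CITED2 and GADD45A did not follow the other targets. CITED2, a co-regulator that binds the acetyltransferases CBP and p300, was at 24.5 and 23.0 CPM at 0 min, 26.7 and 21.1 after 5 min, 25.6 and 31.0 after 10 min, 27.7 and 30.3 after 30 min, and 22.3 and 24.8 after 240 min. The libraries of 10 and 30 min were above those of 0 min, with log2 fold changes of 0.26 and 0.29, of which the first was -0.09 with scaling to the ERCC spike-ins. Those of 240 min overlapped 0 min (log2 fold change -0.0089, standard error 0.104). The ERCC scaling shifted the median of all genes by -0.33 at 10 min, -0.13 at 30 min and -0.12 at 240 min.

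GADD45A, a stress-induced gene of growth arrest and DNA repair, was at 38.0 and 40.4 CPM at 0 min, 41.2 and 36.3 after 5 min, 37.4 and 41.7 after 10 min, 40.5 and 49.6 after 30 min, and 44.5 and 47.9 after 240 min. It was the 1 gene of the 9 with both 240 min libraries above those of 0 min, where the log2 fold change was 0.23 (standard error 0.0855). The value was positive under all 21 alternative settings, from 0.12 with ERCC scaling.

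**Figure D2:**
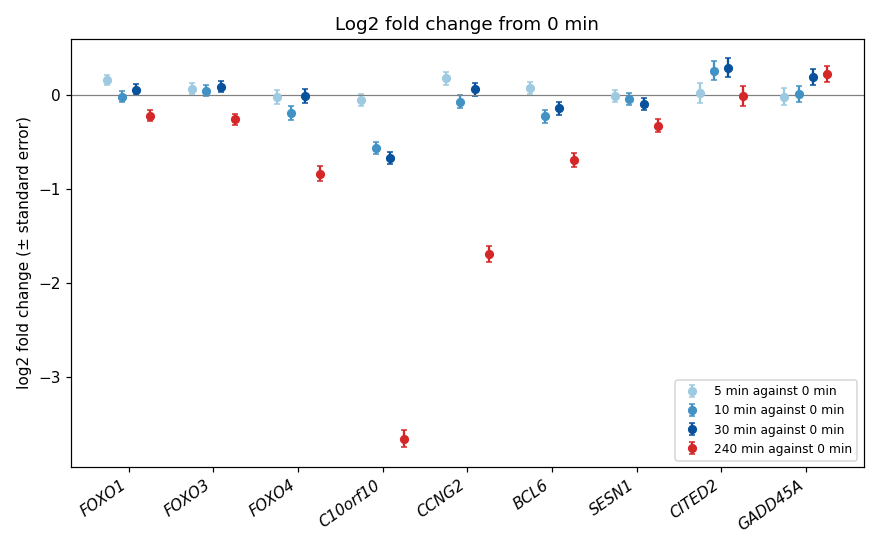
Log2 fold change from 0 min of each of the 9 genes at 5, 10, 30 and 240 min (points, from the edgeR model of the 10 libraries), with bars of 1 standard error; the 4 comparisons of a gene share the 0 min libraries. The points up to 30 min lie no farther than 0.29 from 0 for all genes but C10orf10, and at 240 min they spread from -3.66 (C10orf10) to 0.23 (GADD45A).

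In order of time, no gene of the 9 had both libraries below those of 0 min at 5 min, where 23.9% of all genes tested did, and FOXO1, FOXO3 and CCNG2 had both above, as 24.5% of all genes did. FOXO3 at 5 min was 0.07 on the log2 scale and -0.01 with ERCC scaling. At 10 min C10orf10, BCL6 and FOXO4 had both libraries below, 3 of 9 against 19.1% of all genes. At 30 min they were C10orf10, BCL6 and SESN1, again 3 of 9 against 19.8%. At 240 min 7 of the 9 were below, against 34.9% of all genes. Both libraries lay above those of 0 min for CITED2 at 10 min (18% of all genes), for CITED2 and GADD45A at 30 min (18.5%) and for GADD45A at 240 min (34.8%). These comparisons share the 0 min libraries, and the 9 genes were chosen on these values, so nothing is read from the counts. The decline of C10orf10 had a part at 10 min and a larger part after 30 min. Those of CCNG2, FOXO1 and FOXO3 lay between 30 and 240 min, as did that of FOXO4 apart from its dip at 10 min.

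Genes with a Benjamini-Hochberg adjusted p under 0.05 over all 13852 genes tested (edgeR quasi-likelihood test) are called here. At 240 min against 0 min 8 of the 9 were called, 7 lower and 1 higher (GADD45A), where 41% of all genes were called, 20.4% lower and 20.6% higher. With ERCC scaling 4 of the 9 were called, all lower, beside 1059 of all 13852 genes, 728 lower and 331 higher. At 240 min against 30 min 8 of the 9 were called, all lower, where 38.2% of all genes were. In that comparison 3 were called with ERCC scaling, beside 917 of all genes. CITED2 was called in that comparison, at -0.30, though not without 30 min replicate 2 or 240 min replicate 1, and GADD45A was at 0.04. At 30 min and at 10 min against 0 min C10orf10 was the 1 gene called, among 0.332% and 0.137% of all genes, and at 5 min 0 of the 9 and 0% of all genes were called, with 1976 genes (14.3%) at an unadjusted p under 0.05 and 2 genes called by DESeq2. The call of GADD45A was lost with DESeq2 and without any 1 of the 4 libraries compared, and that of FOXO1 without 0 min replicate 2. As the 9 genes were chosen on these contrasts, nothing is read from these counts.

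The metabolic targets of FOXO give the nearest comparison for the time course of C10orf10. IGFBP1, a secreted IGF-binding protein that insulin represses in liver, was at 270 and 290 CPM at 0 min, 266 and 272 after 5 min, 188 and 215 after 10 min, 222 and 217 after 30 min, and 36.7 and 39.9 after 240 min. Like C10orf10 it was lower in both libraries at 10 and 30 min and much lower at 240 min. Its log2 fold changes were -0.48 (edgeR adjusted p = 0.000269), -0.35 (adjusted p = 0.00656) and -2.88 (adjusted p = 3.63e-16). The call at 30 min was lost without replicate 2 of either time and with ERCC scaling, and the calls at 10 and 30 min were lost with limma on TPM. The glucose output genes G6PC and PCK1, which encode glucose-6-phosphatase and PEPCK, were at 96.8% and 102% of their 0 min means at 10 min and at 118% and 102% at 30 min. At 240 min they were called lower, with log2 fold changes of -2.07 (adjusted p = 2.21e-07) and -1.32 (adjusted p = 3.63e-07). PPARGC1A, the co-activator of that program, was at 87.7% at 10 min and 85.1% at 30 min, neither called, and was called lower at 240 min (log2 fold change -1.04, adjusted p = 2e-08). PDK4 had at most 7 reads and was not tested. That C10orf10 and IGFBP1 differ in time course from CCNG2 and G6PC was not tested.

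**Figure D3:**
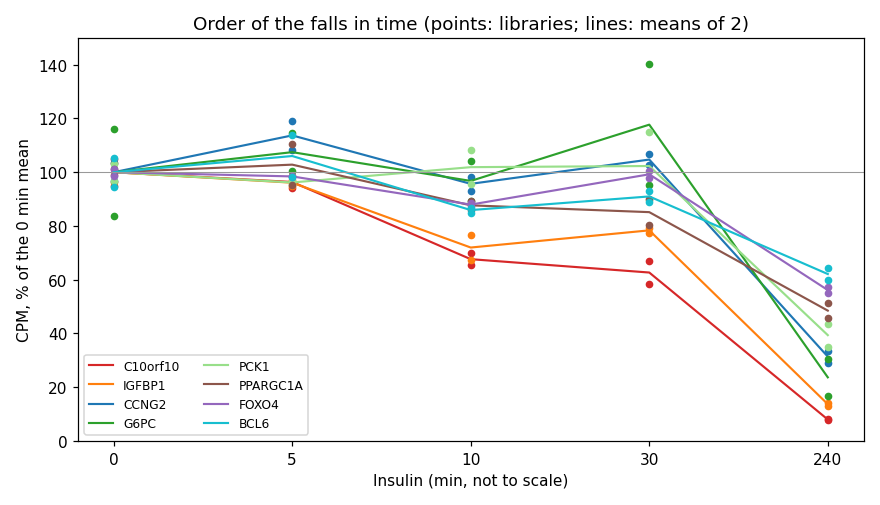
CPM as a percentage of the 0 min mean over the 5 times for 4 of the 9 genes and 4 metabolic FOXO targets (points, libraries; lines, means of 2). C10orf10 and IGFBP1 are at 67.6% and 72.0% at 10 min, the other 6 genes at 85.9% to 102%, and at 240 min the 8 genes run from 7.96% (C10orf10) to 62.1% (BCL6).

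A wider list of 34 FOXO targets outside glucose metabolism was examined, of which 31 passed the filter on low counts (FASLG, ULK2 and TRIM63 did not). At 240 min against 0 min 25 of the 31 were called, 22 lower and 3 higher, which is 80.6% where 41% of all genes were called. Their median log2 fold change was -0.26, beside -0.0026 over all genes tested. At 240 min against 30 min 20 were called, 19 lower and 1 higher, where 38.2% of all genes were called. With scaling to the ERCC spike-ins 10 were, beside 917 of all 13852 genes. At 240 min against 0 min that scaling called 14, 13 lower and 1 higher, beside 1059 of all 13852 genes, 728 lower and 331 higher. The list was written with results of these data known, so the counts are a description of these genes.

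By role, 7 of 8 tested genes of autophagy and protein breakdown fell at 240 min and 0 rose, where 20.4% of all genes were called lower. With ERCC scaling 4 of the 8 were called lower, beside 728 of all 13852 genes. ULK1, the kinase that starts autophagosome formation, went from 24.6 and 24.2 CPM at 0 min to 11.7 and 11.9 after 240 min, a log2 fold change of -1.05 (standard error 0.0895, edgeR adjusted p = 3.57e-08). GABARAPL1, a protein of the autophagosome membrane, fell by 0.63 (adjusted p = 7.23e-06) and PINK1, the kinase that marks damaged mitochondria, fell by 0.61 (adjusted p = 1.01e-06) on the log2 scale. The libraries of 0 and 240 min did not overlap for these genes, nor for most of the list, where 23 of the 31 were lower in both libraries against 34.9% of all genes.

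All 5 genes of growth factor signalling fell, and they are named here after their values were seen, since only the largest falls of the list were to be named. Of all genes 20.4% were called lower. With ERCC scaling 4 of the 5 were, without IRS2, beside 728 of all 13852 genes. INSR, the insulin receptor itself, went from 201 and 219 CPM to 144 and 132 CPM, a log2 fold change of -0.61 (standard error 0.0559, edgeR adjusted p = 8.32e-08). PIK3CA, RICTOR and ERBB3, which encode a PI3K catalytic subunit, a subunit of mTORC2 and a receptor tyrosine kinase, fell by 0.53, 0.52 and 0.52 on the log2 scale. IRS2, the adaptor of the insulin receptor in liver, had 17 to 71 reads per library and its log2 fold change of -0.82 was called at an adjusted p of 0.0239 (edgeR), and not without 0 min replicate 1 or either 240 min library.

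The genes of cell death and of the cell cycle were mixed. BBC3, which encodes the death effector PUMA, went from 7.52 and 7.39 CPM to 3.56 and 4.15 CPM (log2 fold change -0.96, edgeR adjusted p = 2.45e-05). TNFSF10, the death ligand TRAIL, went from 28.5 and 29.8 CPM to 19.8 and 13.1 CPM (-0.81, adjusted p = 5.98e-05). BCL2L11, the death effector BIM, rose by 0.18 (adjusted p = 0.0264), a call lost without 0 min replicate 1 or either 240 min library, and PMAIP1 and TRADD were not called. Of the 6 cell cycle genes tested 3 fell and 2 rose, where 20.4% of all genes were called lower and 20.6% higher. The brakes RBL2, MXI1 and CDKN1B had log2 fold changes of -0.55, -0.50 and -0.33. The rises were those of the D-type cyclins that FOXO represses, CCND1 (0.34, adjusted p = 0.000185) and, at 1.99 to 5.99 CPM and named after its values were seen, CCND2 (0.95, adjusted p = 0.000888). CCND1 stayed higher with ERCC scaling, at 0.22, and was no longer called. With that scaling 2 of the 6 were called lower, without CDKN1B, and 1 higher (CCND2), beside 728 and 331 of all 13852 genes. Of the genes of antioxidant defence and damage 5 of 7 fell, by 0.12 to 0.51 on the log2 scale, where 20.4% of all genes were called lower. With ERCC scaling 1 of the 7 was called lower (SESN2), beside 728 of all 13852 genes. Against 30 min and without that scaling 2 of the 7 were (CAT and SESN2), where 38.2% of all genes were called. SESN2 and CAT are named after their values were seen.

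At 30, 10 and 5 min against 0 min 0 of the 31 genes were called by edgeR's quasi-likelihood test, where 4, 3 and 3 had an unadjusted p under 0.05, and DESeq2 called 0 in each. Of all genes tested, 8.12%, 5.13% and 14.3% had an unadjusted p under 0.05 at these times. The medians of the 31 genes were 0.06, -0.00068 and 0.04 on the log2 scale.

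**Figure D4:**
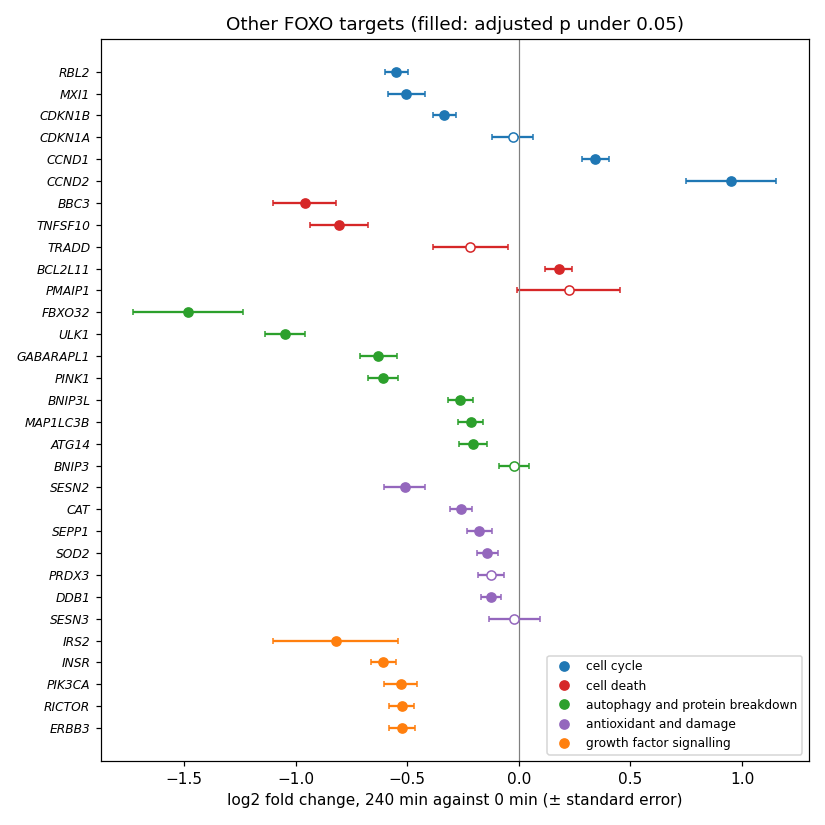
Log2 fold change at 240 min against 0 min of the 31 FOXO targets tested beside the 9 genes, grouped by role, with bars of 1 standard error; filled points have an adjusted p under 0.05. Of the 31, 27 lie below 0, and the 3 filled points above 0 are CCND1, CCND2 and BCL2L11.

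A list of 24 genes held those that control FOXO proteins and the factor FOXO6, which was not tested. Of the 24, 22 were tested and 9 were called at 240 min against 0 min, 5 higher and 4 lower. This is 40.9%, where 41% of all genes were called. The rises were among the 14-3-3 proteins, which hold FOXO in the cytoplasm, and the ubiquitin enzymes: YWHAG rose by 0.36 (edgeR adjusted p = 1.35e-05), YWHAH by 0.22 and YWHAQ by 0.19 on the log2 scale, of 7 14-3-3 genes tested. MDM2, a ubiquitin ligase, rose by 0.32 (adjusted p = 0.000105) and USP7, a deubiquitinase, by 0.17. The acetyltransferases CREBBP and EP300 fell by 0.31 (adjusted p = 0.000104) and 0.24, the nuclear export receptor XPO1 fell by 0.21 and the kinase AKT2 by 0.15. With ERCC scaling 0 of the 22 were called, beside 1059 of all 13852 genes. At 30 min against 0 min 0 were called by edgeR or DESeq2 and 3 had an unadjusted p under 0.05.

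For each of the 9 genes, the 3 genes with the highest Pearson correlation of log2 CPM over the 10 libraries were found among the 10387 tested genes that averaged 5 CPM or more. All genes were measured in the same 10 libraries, which differ in depth and time, so the values are descriptions of shape. Ranked by Spearman's rho, most of the closest genes were others, as given below with the processing. C10orf10 was closest to IGFBP1 (r = 0.995) and FST (r = 0.994). CCNG2 was closest to FRRS1 (r = 0.998), YPEL2 (r = 0.997) and RFX5 (r = 0.997), and FOXO4 to GDPD1 (r = 0.993), PAWR (r = 0.990) and DPYSL2 (r = 0.990). The sizes differed: FST had a log2 fold change of -2.07 at 240 min where C10orf10 had -3.66, whereas YPEL2 was at -1.74 beside -1.69 for CCNG2.

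FOXO1 was closest to BRWD3, BRWD1 and SEL1L (r = 0.981 to 0.988), FOXO3 to KCTD1, MYO1D and EIF4EBP2 (r = 0.984 to 0.988), BCL6 to ALDH3A2, SEMA6A and MGAT4A (r = 0.982 to 0.985), and SESN1 to STARD9, PLA2G12B and TSC1 (r = 0.966 to 0.984). The values were lower for the 2 genes that did not lie below 0 min at 240 min: GADD45A with STAMBP, FBXL21 and FUNDC1 (r = 0.921 to 0.939), and CITED2 with SDPR (r = 0.913) and PLEKHF2 (r = 0.884). Among the 9 genes themselves, FOXO4, C10orf10 and CCNG2 had the highest r with each other (0.974 to 0.983), and CITED2 and GADD45A had the lowest with the other 7 (-0.724 to 0.290).

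The IR ChIP-seq gives a readout of these genes that the choice did not use, in 1 library without a replicate. The deposited list holds 1971 peaks, each with a score, with a median score of 79. Within 5 kb of the gene body, 3 of the 9 genes had a peak (FOXO3, SESN1 and CITED2), where 15.6% of 13695 tested genes with a location did. With 1 kb the count was 2 of 9 against 1915 of the 13695 genes, and with 20 kb 3 of 9 against 21.0%. With peaks above the median score it was 2 of 9 against 8.73%. No test was made with 9 genes and 1 library. C10orf10, CCNG2 and FOXO4 had none, and neither did FOXO1, BCL6 and GADD45A. The centre of the nearest peak was 1330 kb from the start of C10orf10, 81.3 kb from that of CCNG2 and 188 kb from that of FOXO4.

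The peak of SESN1 had the highest score of the 3, 115 (rank 759 of 1971), and its centre lay 871 bases upstream of the SESN1 start, in a promoter that the deposited annotation gives to the neighbouring gene CEP57L1. That of FOXO3 had a score of 85 (rank 943), was annotated as intergenic and was centred 1552 bases upstream of the start. That of CITED2 had a score of 22 (rank 1821) and was centred 264 bases upstream. The 200 bases at the centre of each peak, on the plus strand of GRCh37, are shown because they are the places near these genes where the receptor was mapped.
FOXO3, chr6:108879374-108879573: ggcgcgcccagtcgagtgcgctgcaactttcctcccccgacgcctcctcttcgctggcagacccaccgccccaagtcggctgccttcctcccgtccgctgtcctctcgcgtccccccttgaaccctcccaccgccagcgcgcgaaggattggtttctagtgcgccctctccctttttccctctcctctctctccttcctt
SESN1, chr6:109416479-109416678: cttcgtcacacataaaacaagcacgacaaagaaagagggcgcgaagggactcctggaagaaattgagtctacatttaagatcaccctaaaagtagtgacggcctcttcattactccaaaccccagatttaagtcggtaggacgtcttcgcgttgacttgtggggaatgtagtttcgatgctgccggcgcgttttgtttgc
CITED2, chr6:139695951-139696150: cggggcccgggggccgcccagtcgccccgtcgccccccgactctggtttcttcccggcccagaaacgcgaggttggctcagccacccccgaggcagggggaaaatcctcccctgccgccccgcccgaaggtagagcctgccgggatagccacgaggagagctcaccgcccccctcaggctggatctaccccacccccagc

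These 3 stretches were 66.0%, 47.5% and 73.0% G and C. The element GTAAACA was found once in the whole FOXO3 peak, near its upstream edge, and not in those of SESN1 and CITED2, and CAAAACA was found in none of the 3.
FOXO3 at -1833, chr6:108879191-108879211, plus strand: tgGTAAACAagcgcgcgcggc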

How the data were processed

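The deposited files cover HepG2 RNA-seq libraries, 2 for each of the times 0, 5, 10, 30 and 240 min, and 1 IR ChIP-seq library. Per the study's methods, the authors trimmed reads with Trim Galore 0.6.4, aligned them to hg19 with STAR 2.6.1d, marked duplicates and counted reads per gene by strand with featureCounts 1.6.4, and deposited raw counts. The authors also deposited TPM from StringTie, whose version is not given in the sources used here. ChIP reads were aligned with BWA 0.7.17-r1188, and the deposited peak table holds the score of each MACS2 2.2.7.1 peak with HOMER's annotation. The extraction texts of the RNA and ChIP libraries appear exchanged in the labels against the methods, so dose and medium of the time course are not certain.

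Libraries held 18347109 to 45005769 counts on genes, and 1.59% to 2.36% of all counts fell on 92 ERCC spike-ins, rows that name no gene and were removed before normalization. Counts were fitted with edgeR 4.0.16 in R 4.3.3 (TMM, filterByExpr, quasi-likelihood F test, all 10 libraries in 1 model, no block for the replicate number), leaving 13852 genes of 26364. Tests were two-sided with Benjamini-Hochberg adjustment over all genes tested, and genes with an adjusted p under 0.05 are called. The standard error is the absolute log2 fold change over the square root of F. The 2 libraries of each time differed by more than counting noise (chi-square per degree of freedom 2.86 to 6.46), so none was counted as a repeat. The fit was tested on simulated data.

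The 9 genes and all gene lists were chosen with earlier results of these data known. Beside the 9 genes and 5 metabolic targets, the text names of each list the called genes that averaged 5 CPM or more, up to 5 rises and 5 falls, and the 3 genes most like each of the 9, of which some are not reported here. The markers were ALB, AFP, APOA2, TTR and SERPINA1 for hepatocytes and PTPRC, CD3E, CD68, PECAM1, COL1A2 and DES for other cells. Peaks counted for a gene when within 5 kb of its body in the StringTie table, which gave 13695 tested genes a location. Sequences were read from GRCh37 with Python and pandas 2.3.3, and figures drawn with matplotlib 3.10.9. Alternatives were DESeq2 1.42.0, the likelihood ratio test, RLE, upper-quartile and ERCC scaling, 2 other filters, a replicate block, only the times compared, limma 3.58.1 on TPM after log2 with a pseudocount of 1 or 0.1, and leaving out each library in turn.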

Additional observations from a re-analysis of the deposited data

How the results depend on the processing

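Of 945 fold changes of the 9 genes under other settings, 40 had the other sign, all in 18 of the 45 combinations of gene and comparison, none of them called. The counts under most settings stayed within 1.5 times. The setting that moved them most was scaling to the ERCC spike-ins. It called 1059 of all genes at 240 min against 0 min (331 higher, 728 lower) in place of 5676 (2847 higher, 2829 lower), and with it 4 of the 9 genes, 14 of the other FOXO targets and 0 regulators were called. At 240 min against 30 min it called 3 of the 9 genes, 10 of the other targets and 917 of all genes. At 30 min against 0 min it called 0 of the 9 and 4 of all genes. The cause was not tested. FOXO4, C10orf10, CCNG2 and BCL6 were called at 240 min against 0 min under all 21 settings, FOXO3 and SESN1 under all but ERCC scaling, and FOXO1 not with ERCC scaling, limma on TPM or without 0 min replicate 2. With limma on log2(TPM + 1) 0 of the 9 genes were called at 10 min, beside 1 of all 13693 genes. With log2(TPM + 0.1) 0 were called at 10 min, beside 5 of all genes, and 0 at 30 min, beside 8. Under the other settings C10orf10 was called at both times, except at 30 min with ERCC scaling. Without a filter on low counts 2 of the 9 genes and 2 of the other targets were called at 30 min, beside 160 of all 20553 genes. At 5 min 1 of the other targets was called without that filter, beside 144 of all genes. The likelihood ratio test called 2 other targets at 30 min, beside 96 of all 13852 genes. Libraries with the same replicate number did not deviate together (correlations of -0.115 to 0.133, 2 of 10 over 0.1). A replicate block called 1 other target at 30 min, beside 59 of all 13852 genes, and changed no other count by over 1.5 times. Ranked by Spearman's rho in place of Pearson's r, 3 of the 27 genes most like the 9 remained.

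Leaving out each library in turn changed how many genes were called, among the 9, in the other lists and over all genes. The log2 fold changes at 240 min against 0 min ran from -3.73 to -3.58 for C10orf10 and -1.79 to -1.58 for CCNG2. The ranges were -0.869 to -0.807 for FOXO4, -0.761 to -0.607 for BCL6 and -0.374 to -0.283 for SESN1. They were -0.307 to -0.222 for FOXO3, -0.26 to -0.175 for FOXO1, -0.0822 to 0.0683 for CITED2 and 0.174 to 0.281 for GADD45A. The calls of SOD2, SEPP1, ATG14, MAP1LC3B and DDB1 among the other targets and of AKT2 and USP7 among the regulators were lost without single libraries of the times compared. With 2 libraries a time, these fits do not show which of a pair is unusual.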

Other observations

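Between 30 and 240 min, 12 of the 22 genes tested that control FOXO proteins were called, 8 higher and 4 lower (54.5%, where 38.2% of all genes were called). The largest rises were those of SGK2 (0.41 on the log2 scale, edgeR adjusted p = 0.0162), YWHAG (0.34), YWHAH (0.30), SGK1 (0.30) and the ubiquitin ligase subunit SKP2 (0.26). SGK1 and SGK2 are kinases related to AKT that phosphorylate FOXO proteins. SGK1 was at 30.0 and 25.5 CPM at 0 min, 25.8 and 22.8 after 30 min, and 28.9 and 31.3 after 240 min, so its libraries at 240 min overlapped those of 0 min. The falls were those of CREBBP (-0.33), EP300 (-0.28), XPO1 (-0.21) and MAPK8 (-0.17), and the last was called in 10 of 21 other settings. The calls of SGK1, SGK2 and SKP2 were lost without single libraries of the times compared. With scaling to the ERCC spike-ins 0 of the 22 genes were called, beside 917 of all 13852 genes.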
